A study of Homo sapiens with 12 samples.

Results

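The ERBB receptor family, its EGF-like ligands and the feedback inhibitor ERRFI1 were followed through 12 RNA-seq libraries. The 10 genes were chosen by name, as 4 receptors (EGFR, ERBB2, ERBB3 and ERBB4), 5 ligands (HBEGF, AREG, EREG, TGFA and BTC) and ERRFI1, and all 10 symbols were found among the 23228 genes that each count table lists. C4.2B is an established prostate cancer line of the castration-resistant kind, derived from LNCaP cells. There were 4 arms of 3 libraries, lettered A, B and C. The DMSO arm received vehicle, the GDC arm 0.5 µM of the pan-PI3K inhibitor GDC-0941, the GSK arm 5 µM of the EZH2 inhibitor GSK126, and the COMBO arm both agents at those doses. Agents were given for 24 h in 10% charcoal-stripped serum, to which cells were switched when the combination treatment began, after 6 days of pretreatment with GSK126 in the GSK and COMBO arms and with vehicle in the DMSO and GDC arms, so cells had been exposed to the EZH2 inhibitor for longer than to the PI3K inhibitor. The 3 libraries of an arm came from plates of a single cell line, and p-values therefore measure the spread between these samples, which may be technical.

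ERBB receptors are tyrosine kinases of the cell surface that are active as dimers. EGFR binds EGF, TGFα and amphiregulin, and, with ERBB4, betacellulin, epiregulin and HB-EGF. ERBB2 has no known ligand and is the preferred dimer partner, and ERBB3 has a nearly inactive kinase but many docking sites for the p85 subunit of PI3K. Ligands are made as membrane precursors that proteases of the ADAM family cut free, and ERRFI1 (MIG6) binds and inhibits the active kinases. In prostate cancer cells these receptors feed the PI3K and ERK pathways, and receptor genes are known to respond to the activity of the PI3K pathway itself. EZH2 writes the repressive mark H3K27me3.

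Libraries held 8785218 to 44437751 counts in genes, and 14189 genes passed the filter on low counts. Levels below are CPM, counts scaled to library size by TMM, as mean ± SD with n = 3 libraries, and changes are log2 fold changes of an edgeR quasi-likelihood fit over all 12 libraries, called at a Benjamini-Hochberg adjusted p under 0.05 over all genes tested. Luminal lineage, though not which line this is, was checked against 9 luminal prostate markers, all of which were detected. Their summed levels were 3328 to 3549 CPM in DMSO, 4900 to 5037 in GDC, 4511 to 4914 in GSK and 5595 to 6033 in COMBO. In GDC 6 were called higher and KRT18 lower (-0.22), where 20.0% of all genes were called each way. In GSK and COMBO 7 were called higher and HOXB13 lower (-0.29 and -0.68). The shares of all genes there were 40.0% and 43.3% higher, and 35.7% and 39.2% lower. The 5 basal markers summed to 0.987 to 3.35 CPM in any library. The 8 fibroblast, endothelial and immune markers summed to 10.3 to 11.9 CPM in DMSO, 11.1 to 14.4 in GDC, 26.5 to 38.7 in GSK and 30.0 to 48.8 in COMBO, mostly from COL1A1, with CD3E at 0 in every library. The share of reads that fell in genes was 66.3% to 76.3%, lowest in COMBO. The part of these marker levels and read shares in the results below was not tested.

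Of the 10 genes, 7 passed the filter (EGFR, ERBB2, ERBB3, HBEGF, TGFA, BTC and ERRFI1), ERBB4 had too few counts to be tested, and 2 (AREG and EREG) had 0 counts in all 12 libraries. A 0 leaves room for as many as 3 counts, or 0.0722 to 0.330 CPM depending on the depth of the library, so amphiregulin and epiregulin transcripts were not detected. The annotation used for counting is not stated, and whether it could assign reads to AREG or EREG was not tested. BTC passed the filter only because of its level in COMBO, so it is described by pooled counts and is left out of the counts of called genes below. Intervals and floors from counts cover counting error only. In bulk RNA, fewer cells that express a gene and less RNA per cell cannot be told apart.

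The start-site sequences of 2 ligands, HBEGF and BTC, are shown, chosen with their values known. HBEGF was the gene whose response to the PI3K inhibitor depended on the EZH2 inhibitor. BTC was the ligand that went from near 0 to a measurable level. They were not the members with the strongest calls. RefSeq windows on GRCh38.p14 were found for 9 of the 10 genes (11 windows of 300 bases, 250 before the start site and 50 after). The 250 bases before the start are printed 5′ to 3′ on the strand of the gene. The HBEGF window is chr5:140346604-140346853, minus strand, and the BTC window is chr4:74794524-74794773, minus strand. Capitals mark GC boxes (GGGCGG or its reverse complement CCGCCC) in HBEGF and a FOXO motif (GTAAACA, here as its reverse complement TGTTTAC) in BTC.
HBEGF: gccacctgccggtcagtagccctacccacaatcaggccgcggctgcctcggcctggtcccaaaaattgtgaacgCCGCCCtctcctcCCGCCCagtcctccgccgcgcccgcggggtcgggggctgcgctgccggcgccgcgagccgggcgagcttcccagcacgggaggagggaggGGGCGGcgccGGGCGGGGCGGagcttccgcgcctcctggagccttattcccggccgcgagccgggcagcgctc
BTC: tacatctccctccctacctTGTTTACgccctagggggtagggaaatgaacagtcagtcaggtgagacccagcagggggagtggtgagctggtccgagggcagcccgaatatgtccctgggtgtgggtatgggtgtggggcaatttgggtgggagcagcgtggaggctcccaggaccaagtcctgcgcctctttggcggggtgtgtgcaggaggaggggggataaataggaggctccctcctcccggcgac

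The HBEGF window held 5 GC boxes, the most of any of the 11 windows, of which 2 overlap by 1 base, and 45% of the 35116 promoter windows of all genes hold at least 1. The FOXO motif was found in the BTC window alone among the 11, at bases -231 to -225 from the start site, and 3.42% of all windows hold it on either strand. TGANTCA, an AP-1 motif, occurred 2 times in the downstream EGFR window and 1 time in that of ERBB2, against 7.71% of all windows with a match. The cAMP response element TGACGTCA was found in the AREG window at bases -65 to -58 and is present in 1.85% of all windows, and the E-box CACGTG, which 7.26% of windows hold, was in none of the 11. The ratio of observed to expected CpG was 0.902 in the HBEGF window and 0.416 in the BTC window, against a median of 0.579 over all windows (quartiles 0.229 and 0.856). These matches describe the letters of the windows and were not tested against the changes below.

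The receptors differed in which agent moved them. EGFR transcript rose in GDC and COMBO and was not called in GSK. ERBB2 rose in every arm, more in GSK than in GDC, and ERBB3 rose with each agent and was highest with both. ERBB4 stayed at a few counts per library in every arm.

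EGFR (chr7:55019017-55211628, plus strand, hg38) stood at 134, 118 and 121 CPM in the DMSO libraries, 168, 149 and 177 with GDC-0941, 116, 112 and 141 with GSK126, and 157, 149 and 159 with both. Every library with GDC-0941 lay above every DMSO library and every GSK library, whereas the GSK and DMSO libraries overlapped. The mean rose from 124 ± 8.44 CPM to 164 ± 14.4 in GDC and 155 ± 5.57 in COMBO, log2 fold changes of 0.41 (SE 0.074, adjusted p = 0.000232) and 0.32 (SE 0.074, adjusted p = 0.000513). The change in GSK was -0.011 (95% interval -0.17 to 0.15, adjusted p = 0.904), which leaves room for a small difference in either direction.

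ERBB2 encodes the receptor known as HER2 (chr17:39687914-39730426, plus strand). Its exons overlap those of PGAP3 on the opposite strand, and since the use of strand in counting is not stated, reads of the shared stretch cannot be assigned with certainty. The DMSO libraries held 101, 109 and 100 CPM, the GDC libraries 134, 129 and 138, the GSK libraries 229, 234 and 231, and the COMBO libraries 261, 257 and 282. The 4 arms did not overlap and were ordered DMSO, GDC, GSK and COMBO. The mean of 231 ± 2.66 CPM in GSK was 2.23-fold that of DMSO (log2 fold change 1.16, SE 0.050, adjusted p = 6.29e-14). In GDC the change was 0.37 (adjusted p = 1.20e-05), and in COMBO it was 1.36, or 2.58-fold (adjusted p = 1.25e-15).

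ERBB3, the receptor that recruits PI3K most directly (chr12:56076799-56103505, plus strand), had the highest level of the receptors per kilobase of exon in DMSO. Its values were 220, 228 and 214 CPM for DMSO, 308, 298 and 321 for GDC, 271, 286 and 293 for GSK, and 422, 426 and 447 for COMBO. Again no 2 arms overlapped, and here the GDC libraries lay above the GSK libraries. GDC raised it by 0.49 on the log2 scale (SE 0.046, adjusted p = 1.19e-07) and GSK by 0.36 (adjusted p = 5.69e-07). COMBO raised it by 0.97 (adjusted p = 7.15e-14), a 1.96-fold rise from 221 ± 7.29 to 432 ± 13.7 CPM.

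ERBB4, which binds neuregulins as well as several EGF-like ligands (chr2:211375717-212538841, minus strand), had 0, 1 and 1 counts in the DMSO libraries, 1, 2 and 2 with GDC-0941, 3, 0 and 2 with GSK126, and 2, 5 and 4 with both. The ratio of pooled, library-size-scaled counts to DMSO was 4.07 for GDC (exact 95% interval 0.667 to 42.8), 5.15 for GSK (0.844 to 54.1) and 7.11 for COMBO (1.55 to 66.0). These intervals rest on 2 counts in DMSO, and no arm reached a level at which the receptor could be compared.

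**Figure D1:**
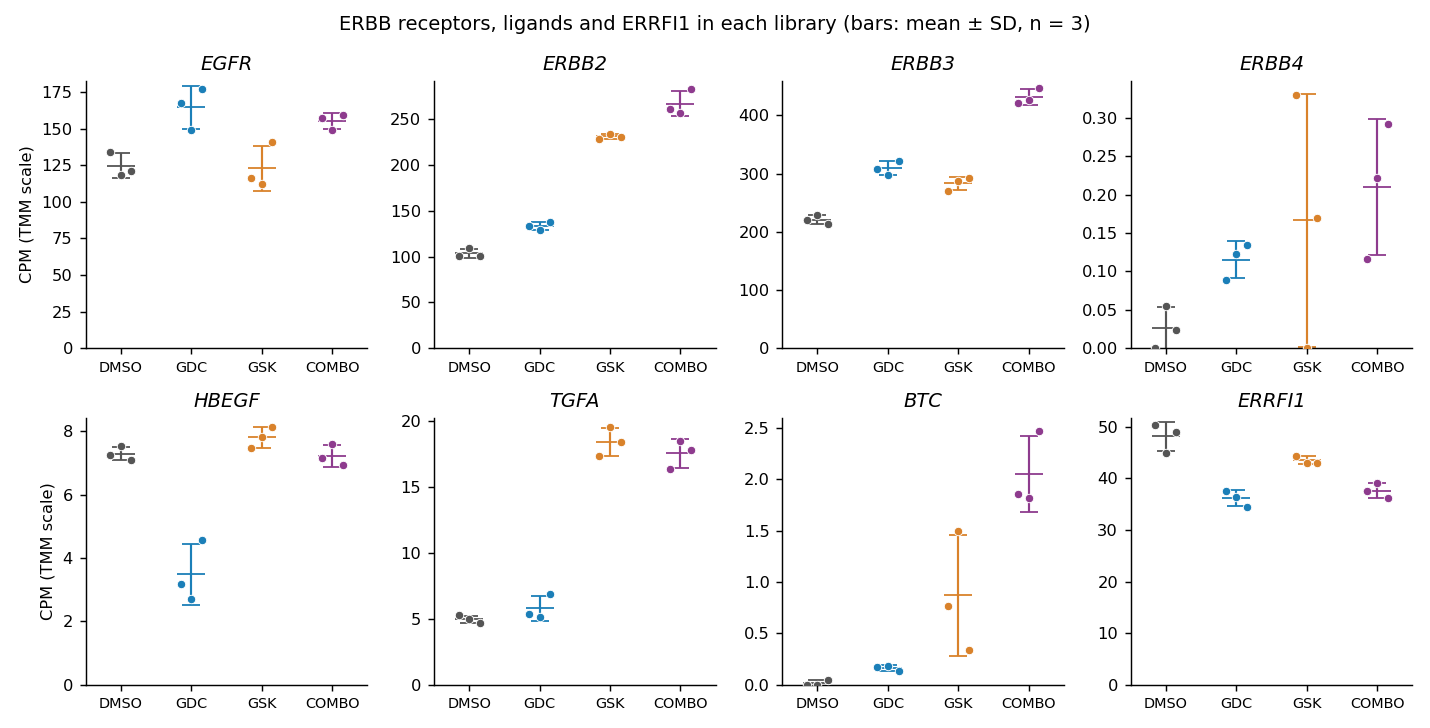
Levels of the 8 detected genes in each library, in CPM on the TMM scale on the vertical axes (each starting at 0) and by arm on the horizontal axes. Points are libraries and bars are the mean ± SD of 3. ERBB2 steps up from DMSO to GDC, GSK and COMBO without overlap, EGFR is high in GDC and COMBO, HBEGF is low in GDC alone, and TGFA is high in GSK and COMBO.

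The ligands did not move as a group. HBEGF fell with the PI3K inhibitor alone, TGFA rose with the EZH2 inhibitor whether or not GDC-0941 was present, and BTC counts were highest with both agents.

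HBEGF encodes heparin-binding EGF-like growth factor (chr5:140332843-140346603, minus strand). DMSO libraries held 7.26, 7.52 and 7.10 CPM, GDC libraries 3.18, 2.71 and 4.56, GSK libraries 7.47, 7.83 and 8.14, and COMBO libraries 7.14, 7.59 and 6.92. The GDC libraries all lay below the other 9, which overlapped one another between arms. The mean fell from 7.29 ± 0.213 to 3.48 ± 0.961 CPM in GDC, which is -1.06 on the log2 scale (SE 0.149, adjusted p = 1.50e-05). GDC C was the highest of its arm, and without it the change was -1.35. In GSK the change was 0.11 (adjusted p = 0.476), and in COMBO it was -0.0038 (95% interval -0.27 to 0.26, adjusted p = 0.979).

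TGFA encodes transforming growth factor α (chr2:70447284-70554193, minus strand). Its level was 5.26, 4.98 and 4.72 CPM in the DMSO libraries and 5.39, 5.11 and 6.91 in GDC, against 17.4, 19.5 and 18.4 in GSK and 16.4, 18.5 and 17.8 in COMBO. All 6 libraries with GSK126 lay above all 6 without it. The rise was 3.77-fold in GSK (log2 fold change 1.92, SE 0.112, adjusted p = 5.55e-12) and 3.59-fold in COMBO (1.84, adjusted p = 2.36e-12). The change in GDC was 0.25 (95% interval -0.024 to 0.52, adjusted p = 0.140), and 0.059 without GDC C, the highest library of that arm.

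BTC encodes betacellulin (chr4:74744759-74794523, minus strand), a ligand of EGFR and ERBB4 whose window is printed above. Its counts were 0, 0 and 2 for DMSO, 2, 3 and 2 for GDC, 7, 19 and 4 for GSK, and 32, 41 and 34 for COMBO. COMBO libraries stood at 1.86, 1.82 and 2.48 CPM and lay above all others. Ratios of pooled, library-size-scaled counts are given in place of fitted folds, since DMSO held 2 counts in all, both from DMSO C. The ratio to DMSO was 5.70 for GDC (exact 95% interval 1.09 to 56.2), 30.9 for GSK (7.84 to 267) and 69.2 for COMBO (18.7 to 578). GSK B held 19 of the 30 GSK counts, and without it the ratio of GSK to DMSO was 18.2 (3.97 to 169).

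BTC lies with AREG, EREG and EPGN, the epigen gene, in a stretch of 486.1 kb of chromosome 4. AREG (chr4:74445136-74455005) and EREG (chr4:74365145-74388749) were at 0 in every arm, and EPGN (chr4:74308470-74316789) had 17 counts in the 12 libraries together. EPGN had 6 counts in the COMBO libraries in which BTC had 107. Whether the annotation used for counting could assign reads to AREG or EREG was not tested, so the comparison with BTC rests on EPGN alone.

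ERRFI1, the feedback inhibitor (chr1:8004404-8026309, minus strand), fell in GDC and COMBO, the arms in which EGFR, ERBB2 and ERBB3 all rose against DMSO. Its level was 50.4, 45.0 and 49.0 CPM under vehicle, 37.5, 36.5 and 34.5 under GDC-0941, 44.4, 43.1 and 43.1 under GSK126, and 37.6, 39.2 and 36.1 under both. GDC and COMBO libraries overlapped each other and lay below all DMSO and GSK libraries. The mean fell from 48.1 ± 2.80 to 36.1 ± 1.53 CPM in GDC (log2 fold change -0.41, SE 0.059, adjusted p = 1.94e-05) and to 37.6 ± 1.53 in COMBO (-0.35, adjusted p = 1.44e-05). In GSK the change was -0.14 (SE 0.060, adjusted p = 0.0357), a call that was lost without DMSO C (adjusted p = 0.0734) or without GSK C (adjusted p = 0.0960) and that became 0.0097 when libraries were scaled by their totals. With the same scaling the change in COMBO was -0.14 (adjusted p = 0.0299).

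**Figure D2:**
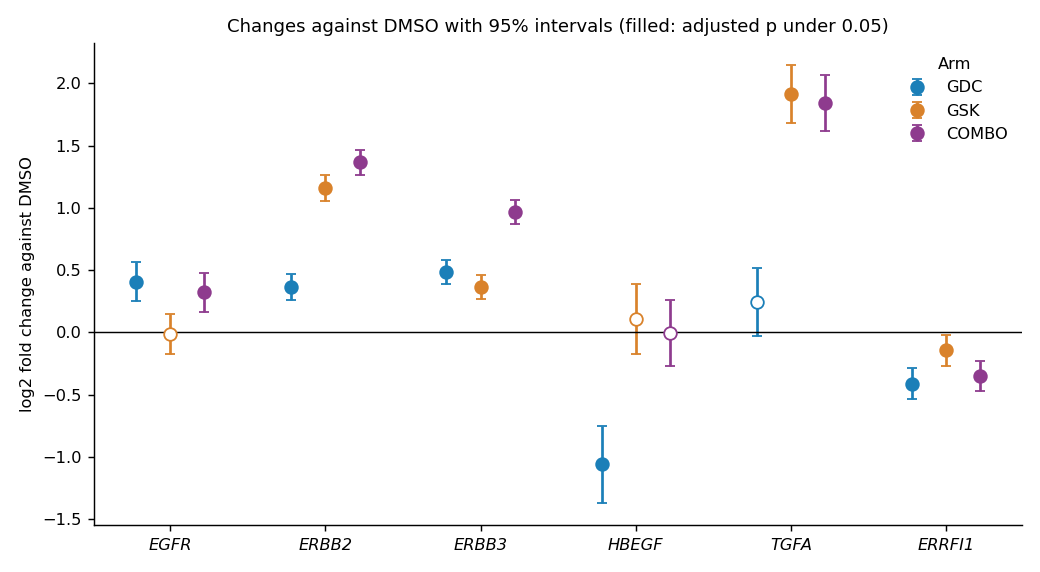
Log2 fold changes against DMSO (vertical axis) of the 6 genes with enough DMSO counts for a fitted fold, in GDC, GSK and COMBO. Bars are 95% intervals and filled points have an adjusted p under 0.05. Intervals of EGFR in GSK and of HBEGF in GSK and COMBO span 0, and TGFA in GSK has the highest value at 1.92.

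Counted over the 6 tested genes other than BTC, GDC raised 3 (EGFR, ERBB2 and ERBB3) and lowered 2 (HBEGF and ERRFI1), where 20.0% of all genes tested were called higher and 20.0% lower. GSK raised 3 (ERBB2, ERBB3 and TGFA) and lowered ERRFI1, against 40.0% and 35.7% of all genes. COMBO raised 4 (EGFR, ERBB2, ERBB3 and TGFA) and lowered ERRFI1, against 43.3% and 39.2%. With such shares of all genes called in GSK and COMBO, a call by itself says little about the family. When libraries were scaled by their totals, the higher genes went from 52.8% to 64.0% of all calls in GSK and from 52.5% to 63.3% in COMBO. Over all calls in GDC their share was 49.98%, 40.2% with DESeq2 size factors, 58.5% with library totals and 35.9% with no filter. The median log2 fold change of the 6 was 0.31 in GDC, 0.24 in GSK and 0.64 in COMBO, beside 0.016, 0.058 and 0.054 over all genes tested.

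What the EZH2 inhibitor added to the PI3K inhibitor was read from COMBO against GDC. It raised 4 of these 6 genes and lowered 0, where 37.9% of all genes were called higher and 38.0% lower (49.9% of calls higher, or 62.8% with library totals). ERBB2 rose by a log2 fold change of 0.998 (adjusted p = 3.07e-13), ERBB3 by 0.48 (adjusted p = 6.72e-09), TGFA by 1.60 (adjusted p = 7.09e-11) and HBEGF by 1.05 (SE 0.151, adjusted p = 2.85e-06). HBEGF is the only 1 of these that GSK did not raise against DMSO. The pooled BTC count was 12.1 times that in GDC (exact 95% interval 5.69 to 30.9). EGFR changed by -0.085 (adjusted p = 0.297) and ERRFI1 by 0.065 (adjusted p = 0.340), the latter 0.24 with an adjusted p of 0.00153 when scaled by library totals.

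What the PI3K inhibitor added to the EZH2 inhibitor was read from COMBO against GSK, in which 19.0% of all genes were called higher and 26.9% lower (41.4% of calls higher, or 52.3% with library totals). Of the 6 genes, 3 rose and 1 fell. ERBB3 rose by 0.61 (adjusted p = 1.68e-09), EGFR by 0.33 (adjusted p = 0.00129) and ERBB2 by 0.21 (adjusted p = 0.00168), so all 3 expressed receptors were higher with both agents than with GSK126 alone. BTC was 2.24 times as high in pooled counts (exact 95% interval 1.48 to 3.48), 1.67 times without GSK C (1.08 to 2.68) and 3.80 times without GSK B (2.04 to 7.84). ERRFI1 fell by 0.20 on the log2 scale (adjusted p = 0.0105), a call lost without GSK A, GSK B or COMBO A (adjusted p = 0.0750, 0.0545 and 0.0616), with library totals (0.0512) or with no filter (0.0613). TGFA changed by -0.071 (95% interval -0.27 to 0.13, adjusted p = 0.576) and HBEGF by -0.11 (adjusted p = 0.532).

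The GDC and GSK arms share their DMSO libraries, so their changes are set side by side without a test of likeness. Read directly, every GDC library lay above every GSK library for EGFR and ERBB3. For ERBB2, HBEGF, TGFA and ERRFI1 every GSK library lay above every GDC library. The share of all genes whose libraries separate in this way was not counted, so the separation says little about the family. ERBB2 was thus the receptor ordered as HBEGF and TGFA were.

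The interaction tested whether the change in COMBO equals the GDC and GSK changes added together, COMBO minus GDC minus GSK plus DMSO on the log2 scale. HBEGF was the 1 gene of the 6 called, with an interaction of 0.95 (SE 0.203, 95% interval 0.52 to 1.37, adjusted p = 0.00210). Its single-agent changes summed to -0.95 while its change in COMBO was near 0. Over all genes tested, 4.86% were called with a positive and 16.5% with a negative interaction, and of the 6 genes 1 was positive and 0 negative. The number of all genes called was 3034, and 2014 without DMSO C, and positive interactions made up 22.7% of the calls, 35.2% with DESeq2 size factors, 40.7% with a filter at a mean of 1 CPM and 55.4% with no filter, so the balance of signs over all genes turned with the filter.

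None of the receptors had a called interaction. It was -0.075 for EGFR (adjusted p = 0.673), -0.16 for ERBB2 (95% interval -0.31 to -0.015, adjusted p = 0.108) and 0.12 for ERBB3 (adjusted p = 0.201). The ERBB3 interaction was called, at 0.18 to 0.21, with no filter, with the 1 CPM filter, without GDC C and without COMBO A. ERBB2 thus stood in COMBO at 1.36, with a sum of single-agent changes of 1.53, and ERBB3 at 0.97 with a sum of 0.85. TGFA had an interaction of -0.32 (95% interval -0.66 to 0.019, adjusted p = 0.175) and ERRFI1 of 0.21 (adjusted p = 0.0891). ERRFI1 was also called under several other settings, among them DESeq2 size factors (0.25, adjusted p = 0.0423).

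**Figure D3:**
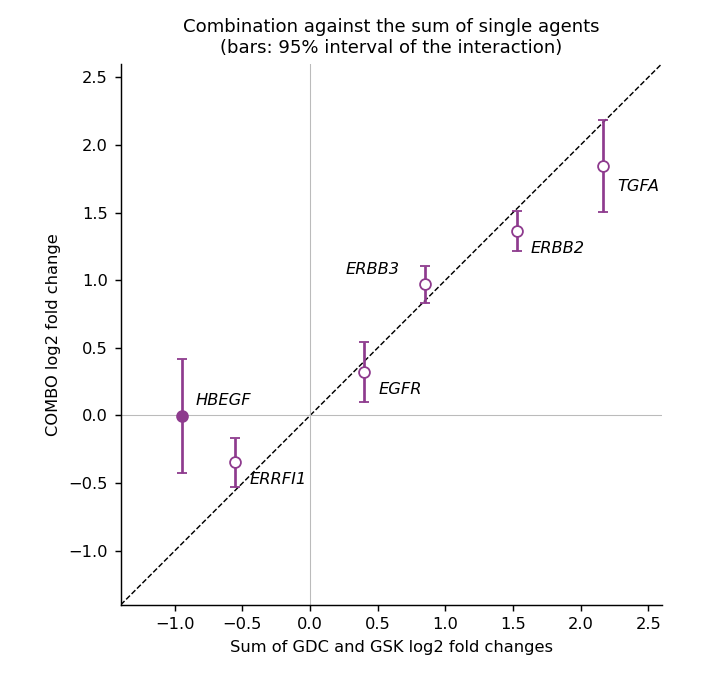
Log2 fold change in COMBO (vertical axis) against the sum of the GDC and GSK log2 fold changes (horizontal axis), with the dashed line where they are equal. Bars are the 95% interval of the interaction drawn around the COMBO value, and the filled point has an adjusted p under 0.05. HBEGF, at a sum of -0.95, is the filled point. The unadjusted intervals of ERBB2 and ERRFI1 also miss the line, with adjusted p of 0.108 and 0.0891.

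Levels were compared between genes only per kilobase, using summed exon length unless the canonical transcript is named. By summed exon length the receptors together stood at 36.7 ± 1.01 CPM per kilobase under vehicle, 49.6 ± 2.31 under GDC-0941, 54.3 ± 1.82 under GSK126 and 72.4 ± 2.72 under both. HBEGF, TGFA and BTC together stood at 3.46 ± 0.0946, 2.41 ± 0.507, 6.69 ± 0.426 and 6.76 ± 0.302 in the same order. This sum leaves out EGF and NRG4, which were detected and are described with the other ligands below. Receptor transcripts exceeded those of HBEGF, TGFA and BTC in every arm. In DMSO the order was ERBB3 (18.8), ERRFI1 (11.5), ERBB2 (10.0), EGFR (7.81), HBEGF (2.44) and TGFA (1.01 CPM per kilobase), with BTC and ERBB4 far under these. ERRFI1 at 11.5 ± 0.670 and ERBB2 at 10.0 ± 0.494 were neighbours in that order. With canonical transcript length, added after seeing the data, ERBB2 (22.7) stood above ERRFI1 (15.5). Their order thus depends on the length used.

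The make-up of the receptor pool changed with the EZH2 inhibitor. ERBB2 made up 27.3% ± 0.913 of the receptor sum in DMSO and 26.1% ± 0.379 in GDC, but 41.3% ± 1.28 in GSK and 35.7% ± 0.503 in COMBO. EGFR went from 21.3% ± 1.48 in DMSO and 20.8% ± 0.897 in GDC to 14.2% ± 1.37 in GSK and 13.4% ± 0.370 in COMBO. ERBB3 held 51.4% ± 0.563, 53.2% ± 0.557, 44.5% ± 0.595 and 50.9% ± 0.562. With the length of the canonical transcript in place of summed exons, a choice added after seeing the data, ERBB2 (44.7%) and ERBB3 (44.4%) were level in GSK, so the order of these receptors in that arm depends on the length used.

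Among HBEGF, TGFA and BTC the shares moved further. HBEGF made up 70.5% ± 0.986 of the sum of these genes under vehicle, 48.0% ± 3.11 under GDC-0941, 39.1% ± 2.38 under GSK126 and 35.7% ± 1.85 under both. TGFA rose in share from 29.3% ± 1.11 to 49.3% ± 2.22, 56.0% ± 0.649 and 52.8% ± 0.994. By canonical transcript length HBEGF (49.7%) stood above TGFA (48.1%) in GDC, so their order in that arm depends on the length used. Of this pair, HBEGF was the ligand called against DMSO in GDC and TGFA the ligand called in GSK. BTC took 0.180%, 2.71%, 4.81% and 11.4% in the same order.

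**Figure D4:**
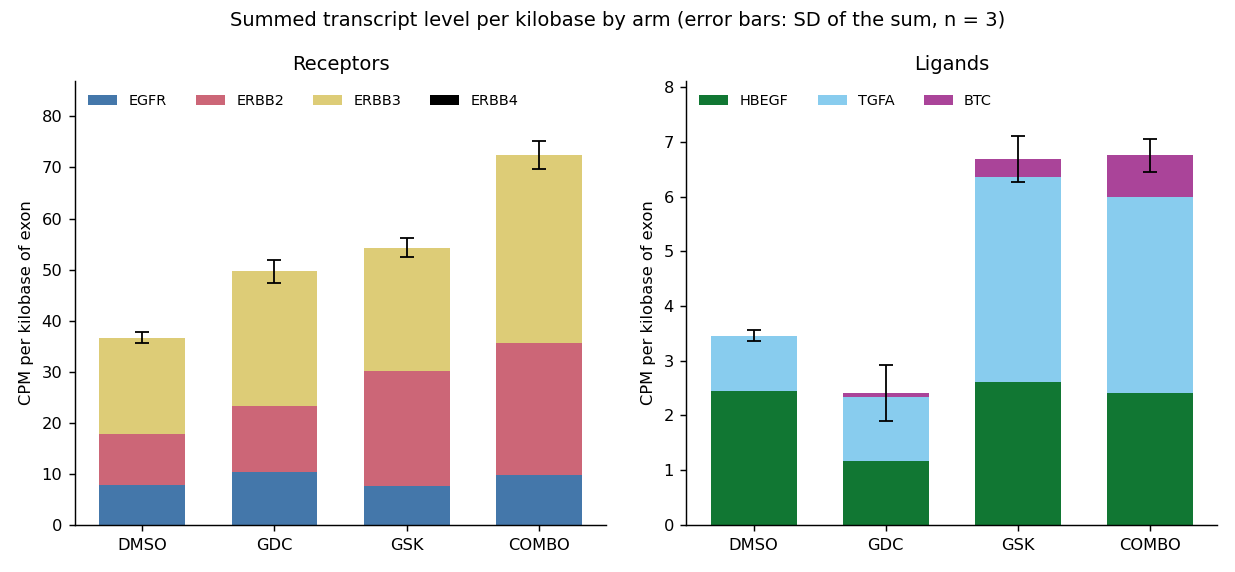
Summed levels of the receptors (left) and of HBEGF, TGFA and BTC (right) by arm, in CPM per kilobase of summed exon length, with stacked bars for the mean of each gene and error bars for the SD of the sum over 3 libraries. The receptor sum goes from 36.7 in DMSO to 72.4 in COMBO with a larger ERBB2 part in GSK and COMBO, and the sum of the 3 ligands is lowest in GDC at 2.41.

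The genes most like each tested member in pattern were listed by the root mean square difference in log2 CPM over the 12 libraries, centred on DMSO. The search covered 11287 genes, and BTC is left out because it passed the filter only through its level in COMBO. For EGFR these were RFX7 (0.0885) and GLUD2 (0.101), for ERBB2 SEZ6L2 (0.0435) and KDM5B (0.0601), and for ERBB3 KIAA0430 (0.0822) and SNX30 (0.0845). For the ligands, TGFA was closest to CUEDC1 (0.139) and TP53I11 (0.148), and HBEGF to CCDC83 (0.252) and MLLT11 (0.286). ERRFI1 was closest to HSPC159 (0.0592) and CGRRF1 (0.0647).

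Of 6 other EGF-like ligands, 2 passed the filter, EGF and NRG4, the second a ligand of ERBB4. EGF, the founding ligand, stood at 15.2 ± 0.952 CPM in DMSO and 17.7 ± 2.36 in COMBO, with log2 fold changes of -0.24 in GDC (adjusted p = 0.0651), 0.36 in GSK and 0.25 in COMBO. NRG4 was low, with 116 counts in all 12 libraries and a DMSO mean within the range of floors given above. It went from 0.323 ± 0.106 to 1.01 ± 0.354 CPM, a change of 1.41 in COMBO, 1.26 in GSK and -0.45 in GDC (adjusted p = 0.545). Both were called higher in GSK and COMBO, where 40.0% and 43.3% of all genes were called higher, and neither in GDC. NRG1, NRG2 and NRG3 had 5, 17 and 14 counts in all 12 libraries.

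Among 6 genes of ligand shedding, GDC raised 1 and lowered 0, GSK raised 4 and lowered 1, and COMBO raised 3 and lowered 1, with a median of 0.28 in COMBO. For this list and those that follow, the shares of all genes called higher and lower were 20.0% and 20.0% (GDC), 40.0% and 35.7% (GSK) and 43.3% and 39.2% (COMBO). RHBDF1 (iRhom1), a partner that carries ADAM17 to the surface, went from 11.3 ± 1.30 to 27.2 ± 3.97 CPM (1.30 in COMBO, 1.47 in GSK, and 0.25 in GDC, not called). ADAM10, which cuts betacellulin and EGF precursors, changed by 0.48 in COMBO, 0.36 in GSK and 0.21 in GDC. RHBDF2 (iRhom2), the paralogue of RHBDF1, fell by 0.41 in COMBO and by 0.42 in GSK, with -0.011 in GDC.

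The 18 adaptors and effectors were all tested. GDC raised 5 and lowered 2, GSK raised 10 and lowered 4, and COMBO raised 12 and lowered 5 (43.3% and 39.2% of all genes), with a median of 0.57 in COMBO. SHC2, an adaptor of the SHC family, had the largest rise, from 0.536 ± 0.10 CPM in DMSO to 2.37 ± 0.271 in GDC, 10.4 ± 1.51 in GSK and 20.9 ± 2.97 in COMBO (log2 fold changes 2.06, 4.2 and 5.19). SHC3, of the same family, rose by 2.26 in COMBO and 1.83 in GSK, with 0.32 in GDC (not called). PIK3CB, a catalytic subunit of PI3K, fell by 0.90 in COMBO and by 0.76 in GSK, with -0.036 in GDC (not called). PTPN11 (SHP2), the phosphatase that links receptors to RAS, fell by 0.84 in COMBO, by 0.74 in GSK and by 0.16 in GDC.

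Of the 16 negative regulators of the receptors, GDC raised 3 and lowered 5, GSK raised 6 and lowered 8, and COMBO raised 7 and lowered 7 (43.3% and 39.2% of all genes), with a median of 0.0023 in COMBO. PTPRK, a receptor phosphatase that acts on EGFR, rose by 1.89 in COMBO and 1.77 in GSK, with -0.062 in GDC (not called), and CBLB, an E3 ligase of the CBL family, rose by 1.25, 1.12 and 0.46. PA2G4 (EBP1), which binds ERBB3, was lowered in each arm, from 523 ± 11.7 to 157 ± 5.25 CPM in COMBO (-1.74, with -1.15 in GSK and -0.36 in GDC). STUB1, an E3 ligase that acts on ERBB2, fell by 0.82 in COMBO and by 0.60 in GSK, with -0.10 in GDC (not called).

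Of 16 genes that commonly respond to ERK activity, 14 were tested. GDC raised 2 and lowered 2, GSK raised 6 and lowered 3, and COMBO raised 5 and lowered 2 (43.3% and 39.2% of all genes), with a median of 0.19 in COMBO. FOS changed by 1.81 in COMBO at a low level (0.171 ± 0.0678 to 0.703 ± 0.173 CPM), by 2.21 in GSK and by 0.59 in GDC (not called). DUSP6, an ERK phosphatase that ERK itself induces, was also low, at 0.440 ± 0.107 CPM in DMSO and 1.16 ± 0.321 in COMBO. It changed by 1.30 in COMBO and 1.48 in GSK, with -0.52 in GDC (not called). PHLDA1 fell by 0.50 in COMBO and by 0.67 in GSK, with -0.0047 in GDC, and SPRED2, an inhibitor of RAF activation, fell by 0.30, by 0.31 and by 0.18.

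**Figure D5:**
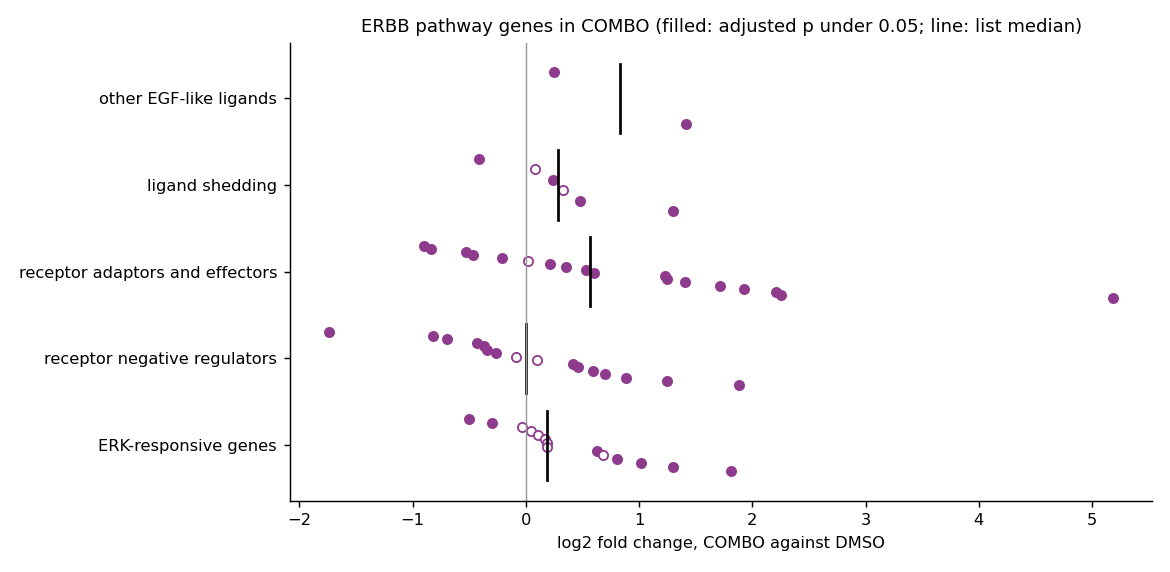
Log2 fold change in COMBO against DMSO (horizontal axis) of each tested gene in 5 lists of ERBB pathway genes (vertical axis). Filled points have an adjusted p under 0.05 and black lines are list medians. Adaptors and effectors spread from -0.90 to 5.19, and the negative regulators lie on both sides of 0.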

How the data were processed

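PolyA RNA of C4.2B cells was sequenced in 12 libraries. Per the study's methods and processing notes, the authors aligned reads to hg38 with STAR and counted them per gene symbol with HTSeq. Versions, annotation and use of strand are not given in the sources used here. The deposited counts are whole reads per gene, not normalized. A deposited table of signal normalized with DESeq2 was not used here. The HTSeq summary lines, 23.7% to 33.7% of reads, entered neither library sizes nor tests, and 0 columns of values mapped to no library.

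Counts were scaled by TMM and filtered by filterByExpr, and all 12 libraries entered a fit with 1 coefficient per arm (edgeR 4.0.16, glmQLFit and glmQLFTest, R 4.3.3, common biological coefficient of variation 0.0499). Tests were two-sided, with Benjamini-Hochberg adjustment over the genes tested. A gene with 10 or fewer DMSO counts in all was given a ratio of pooled counts. Libraries of the same arm differed beyond sampling noise (chi-square per degree of freedom 1.85 to 6.95) and each counted as 1 replicate. The fit was checked on simulated data with changes in COMBO against DMSO only. That check covered neither the interaction nor changes as small as some of those called here.

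Gene positions are from GENCODE 44 on hg38 and promoter windows from RefSeq on GRCh38.p14. From each pathway list the 2 called genes with the highest positive and the 2 with the lowest negative change in COMBO were named. For each tested member other than BTC, the 2 genes of most similar pattern were named, among genes with a mean of at least 2 in log2 CPM. The members and lists were chosen with earlier results of these data known. Alternatives were DESeq2 1.42.0 and its size factors, library totals, other filters, the compared arms alone, the replicate block and each library left out.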

Additional observations from a re-analysis of the deposited data

Results flagged for a closer look

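HBEGF stood out because its response to the PI3K inhibitor differed with and without the EZH2 inhibitor, by a test of the difference itself. The interaction was 0.95 on the log2 scale (SE 0.203, edgeR adjusted p = 0.00210). With vehicle pretreatment all 3 GDC libraries lay below all 3 DMSO libraries (-1.06), and with GSK126 the COMBO and GSK libraries overlapped (-0.11). Over the 18 other settings tried the interaction ranged from 0.84 to 1.27, with adjusted p from 2.64e-05 to 0.00722. With 3 libraries an arm, single libraries far from the others were not looked for by a gap test.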

How the results depend on the processing

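The 42 member values were recomputed under the alternatives, which gave 783 values. Direction and call were kept in 744, the call was lost in 8, gained in 13, and the direction turned in 18. These values include fitted folds of BTC, which passed the filter only because of its level in COMBO. The BTC folds against DMSO rest on 2 DMSO counts, both from DMSO C. How far BTC kept direction and call is therefore not taken as support. Its call in COMBO against GSK was lost without GSK C. Scaling by library totals moved the median of all genes by 0.15 (GSK), 0.21 (COMBO) and 0.17 (COMBO against GDC). With that scaling EGFR in GSK was 0.14, ERRFI1 in GSK 0.0097, HBEGF in COMBO 0.20 and EGFR in COMBO against GDC 0.088, and these are the direction changes that follow from it. HBEGF in COMBO was also 0.029 with a filter at a mean of 1 CPM and 0.012 with the replicate block, and the EGFR interaction was 0.020 with no filter. Values near 0 turned when single libraries were left out, with ranges of -0.12 to 0.014 for EGFR in GSK, -0.045 to 0.015 for HBEGF in COMBO, -0.13 to 0.0055 for EGFR in COMBO against GDC, -0.12 to 0.0091 for TGFA in COMBO against GSK and -0.081 to 0.043 for the EGFR interaction. Members called in the interaction numbered 1, against 2 with DESeq2 size factors, 3 with no filter, 3 with the 1 CPM filter, and 1 to 3 with a library left out. The added calls were ERRFI1 and ERBB3, the latter at 0.21 (adjusted p = 0.0377) with no filter. All genes called in the interaction numbered 2014 to 2986 with a library left out. The cause of these changes was not tested. Where a library was left out, its arm kept 2 libraries.

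Whether letters A, B and C pair the libraries was not settled, and the main fit did not pair them. Deviations from the arm mean of same-letter libraries correlated at -0.084 to 0.19 over 18 pairs. The 2 of them over 0.1 were GDC with COMBO, at 0.12 for letter A and 0.19 for letter B. The 36 other pairs correlated at -0.15 to 0.10, and 6 of 12 libraries correlated best with their own letter. With the replicate block the called members numbered 5 in GDC and 1 in the interaction, as without it, and the block changed no call of a member.

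Depth limits what can be said of ERBB4 and, outside COMBO, of BTC, and for AREG and EREG depth and the annotation used for counting cannot be told apart.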

Other observations

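The genes for the PI3K enzyme that the receptors recruit, part of the adaptor and effector list, were singled out here after their values were seen. PIK3R1, which encodes the p85α regulatory subunit, stood at 193 ± 7.0 CPM under vehicle, 186 ± 7.17 under GDC-0941, 552 ± 27.2 under GSK126 and 509 ± 18.9 under both (SD, n = 3), log2 fold changes of -0.046 in GDC (not called), 1.52 in GSK and 1.40 in COMBO by edgeR. PIK3CA, the p110α catalytic subunit, went from 15.96 ± 1.86 CPM to 22.3 ± 2.12, 28.5 ± 0.644 and 37.5 ± 1.34. PIK3CB, the p110β subunit, went from 180 ± 9.58 to 175 ± 5.88, 106 ± 4.64 and 95.9 ± 2.26 CPM. The catalytic subunits thus moved in opposite directions in GSK and COMBO, PIK3CA by 0.83 and 1.22 and PIK3CB by -0.76 and -0.90.

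GRB7, an adaptor that binds phosphorylated ERBB2, was also chosen after its values were seen. It stood at 8.66 ± 0.997 CPM under vehicle, 9.93 ± 1.06 under GDC-0941, 15.6 ± 2.17 under GSK126 and 20.1 ± 1.25 under both, with log2 fold changes of 0.23 (not called), 0.87 and 1.24. STAT5A, an effector of ERBB4, was likewise chosen after its values were seen. It had changes of 1.08 in GDC, 1.65 in GSK and 1.92 in COMBO, with an interaction of -0.80 (adjusted p = 0.00382).

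DUSP5, an ERK phosphatase of the ERK-responsive list, moved in opposite directions with the agents. It stood at 1.996 ± 0.243 CPM under vehicle, 0.897 ± 0.103 under GDC-0941, 10.0 ± 2.27 under GSK126 and 3.87 ± 0.123 under both, changes of -1.08, 2.41 and 1.01. DUSP4, of the same family, was called in GDC (0.78) and COMBO (0.81), with -0.013 in GSK (not called). DUSP5 and DUSP4 were chosen after their values were seen.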
